A study of Mus musculus with 12 samples.

Results

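Neurotransmitter receptor genes were examined in bulk RNAseq data from mouse oligodendrocyte precursor cells (OPCs), the proliferating progenitors that give rise to the myelinating cells of the CNS. All genes were taken whose symbol names a subunit of an ionotropic glutamate receptor (*Gria*, *Grid*, *Grik*, *Grin*), a metabotropic glutamate receptor (*Grm*), a GABA-A or GABA-B receptor (*Gabr*, *Gabbr*), or a nicotinic or muscarinic acetylcholine receptor (*Chrn*, *Chrm*). The rule found 69 of the 45563 gene symbols used, of which 68 are protein-coding and 1, *Chrna1os*, is an antisense transcript that shares the prefix. OPCs had been isolated with anti-PDGFRα beads from the cortex of C57BL/6 pups, aged postnatal days 2 to 5 according to the labels, and were kept in culture with growth factors for 3 days. The cells carried either both wild-type alleles of the TNF receptor TNFR2 (WT) or a germline deletion of it (TNFR2-/-), which every cell of the animal shares. They then received vehicle (non-stimulated, NS) or TNF, IFNγ and IL1β at 25 ng/mL each for 3 h (stimulated, St). This gave 4 groups of 3 libraries, namely WT NS, WT St, TNFR2-/- NS and TNFR2-/- St, and the comparisons ask how an inflammatory stimulus and the loss of TNFR2 bear on the receptors through which OPCs sense neuronal activity.

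OPCs are the glial cells that receive synapses directly from neurons. Glutamate released at these contacts opens AMPA receptors, tetramers of *Gria* products in which the subunit encoded by *Gria2* keeps the channel nearly impermeable to calcium, while kainate and NMDA receptors are built from *Grik* and *Grin* products. GABA opens pentameric chloride channels made of alpha, beta and gamma subunits and also acts on GABA-B receptors, which couple to G proteins, and acetylcholine acts on nicotinic channels and on muscarinic receptors. These inputs are known to affect the proliferation, migration and differentiation of OPCs.

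Values were read in 2 ways. Tests used log2(FPKM + 0.5), where FPKM are the authors' values normalized to gene length and library size, in a limma fit over 18081 genes. A gene was called when its p, adjusted by the Benjamini-Hochberg method over all genes of the fit, did not exceed 0.05. The lengths used in the deposited FPKM are unrelated to the annotated gene lengths, so levels are given as read pairs recovered from the FPKM and scaled to the library total (CPM, read pairs per 1000000 of the library), and levels of different genes are compared only after division by the annotated exon length (CPM per exon kilobase).

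Libraries held 26886878 to 30335265 read pairs. *Tnfrsf1b*, the gene of TNFR2, had fewer reads in WT (12 to 24 NS, 61 to 145 St) than in TNFR2-/- libraries (213 to 346 NS, 282 to 356 St), and a gene total does not show from which exons they came. The gene total alone thus does not settle the genotype of a library, and every direction between genotypes refers to libraries as labeled. The 10 OPC markers summed to 7476 to 10405 CPM in the 12 libraries, and *Pdgfra*, the receptor used for the isolation, was present in all of them. Microglia markers summed to 0.7 to 1.9 CPM, with *Aif1* and *C1qa* at no more than 2 reads in any library. Neuron markers summed to 975.4 to 1477.5 CPM, of which *Map2* made up the largest part (16362 to 22435 reads in a library). *Tubb3* had 1155 to 14263, *Dcx* 1483 to 2534, *Snap25* 500 to 1557 and *Gad1* 137 to 1078 reads. Others were scarce, with *Rbfox3* at 37 to 112, *Nefh* at 1 to 32, *Slc17a7* at 2 to 11 and *Slc17a6* at 0 or 1. The summed CPM of astrocyte markers differed by genotype, at 1965 to 2400 in WT and 2942 to 4553 in TNFR2-/- libraries. The NS and St libraries of TNFR2-/- culture 5 had the highest sums (4553 and 4536). *Slc1a3* made up the largest part, with a mean of 1167 CPM in WT NS and 1677 in TNFR2-/- NS libraries. *Sox9*, of the same list, had 167 and 173. In bulk RNA, fewer cells of a type and less RNA per cell cannot be told apart.

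The most abundant receptor genes of these OPCs were those for glutamate. Of the 69 genes, 46 had a mean of at least 10 read pairs, 28 of at least 100 and 12 of at least 1000. The highest level in the AMPA family was that of *Gria2*, with 32.2 ± 2.7 CPM per exon kilobase in WT NS cells (SD, n = 3). *Grik3* and *Grik5*, which encode a low-affinity and a high-affinity kainate receptor subunit, followed at 30.2 ± 1.42 and 27.5 ± 0.576, of which the first lay within the spread of *Gria2*. *Grm5*, a metabotropic receptor coupled to phospholipase C, stood at 22.6 ± 3.3. These 4 genes and *Gria4* (19.9 ± 2.06) had the highest levels. In the other families the leading genes were *Grid1* for the delta receptors (12.5 ± 1.04), *Gabbr1* for GABA-B (11.6 ± 1.1), *Chrna4* for nicotinic receptors (9.91 ± 1.07), *Gabrg1* for GABA-A gamma subunits (6.22 ± 0.368), *Grin3a* for NMDA receptors (5.63 ± 0.608), *Gabra3* for GABA-A alpha subunits (4.41 ± 1.01) and *Chrm1* for muscarinic receptors (1.33 ± 0.312). *Gabre* led the remaining GABA-A subunits with 0.269 ± 0.0359.

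**Figure D1:**
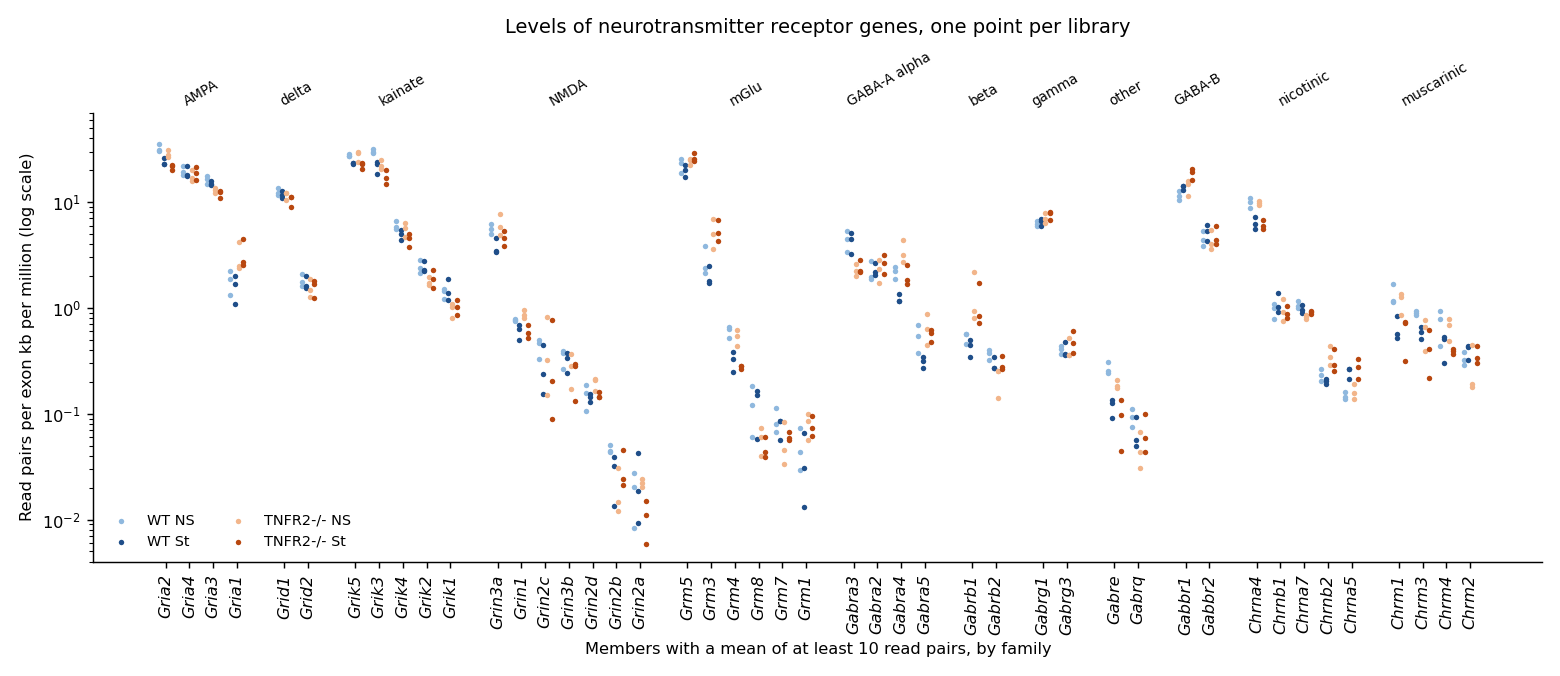
Levels of 45 of the 46 receptor genes with a mean of at least 10 read pairs, as CPM per exon kilobase on a log axis, grouped by receptor family; each point is 1 of 12 libraries and colors mark the 4 groups. *Gria2*, *Grik5*, *Grik3* and *Grm5* lie near the top in all groups, and the NMDA, mGlu and GABA-A gamma families each hold 1 gene far above the rest.

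Within most receptor classes 1 or a few subunits held nearly all of the mRNA. Over the 12 libraries *Gabrg1* held a mean of 93.8% of the GABA-A gamma subunits. *Grm5* held 84.2% of the metabotropic glutamate receptors and *Grm3*, a receptor that couples to inhibitory G proteins, 13.3%. AMPA receptor mRNA was spread over *Gria2* (42.6%), *Gria4* (30.7%), *Gria3* (22.8%) and *Gria1* (3.99%), and kainate receptor mRNA over *Grik5* (44.8%), *Grik3* (40.0%) and *Grik4* (9.25%).

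NMDA receptor mRNA was led by *Grin3a*, which encodes a subunit that lowers calcium permeability, with 75.6% of the class. *Grin1*, which encodes the subunit required in every NMDA receptor, held 10.8%. The glutamate-binding subunits were scarce. *Grin2c* held 5.89%, *Grin2d* 2.46%, *Grin2b* 0.492% and *Grin2a* 0.303%. *Grin2b* itself had 9 to 38 read pairs in a library. Its FPKM lay below the level needed for the test because the deposited divisor of the gene is large, so it was tested on recovered reads only. These are shares of mRNA per annotated exon length, which includes exons that these cells may not use.

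**Figure D2:**
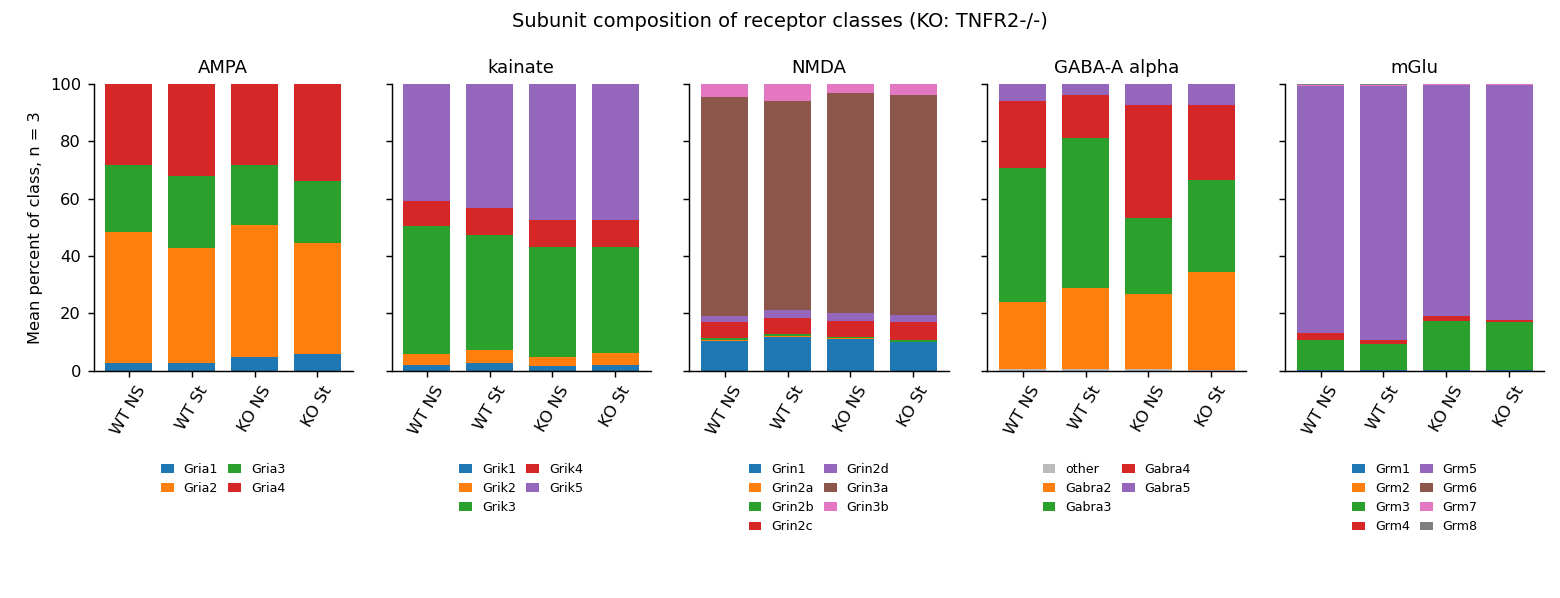
Subunit composition of 5 receptor classes, as the mean percent of class levels per exon kilobase in each of the 4 groups (n = 3 libraries each), stacked to 100%; "other" marks a further alpha subunit. *Grm5* and *Grin3a* dominate their classes in every group, the *Gria2* band is narrower in both St groups, and the *Gabra3* band is narrower in both TNFR2-/- groups.

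The share of *Gria2* in AMPA receptor mRNA was lower after stimulation in every culture. In the WT cultures the share of *Gria2* was 47.1, 46.2 and 44.3% before and 40.0, 40.1 and 39.7% after cytokines. In the TNFR2-/- cultures it was 46.6, 46.5 and 44.7% before and 40.3, 39.0 and 36.6% after. The NS and St ranges did not overlap in either genotype. The mean difference was −6.61 ± 1.25 percentage points (SD, n = 6 cultures), with p = 0.03125 in an exact two-sided sign-flip permutation test, the smallest that 6 cultures allow, and 0.125 after Benjamini-Hochberg adjustment over the 4 shares tested. The other 3 shares differed by less than their spread, *Grik5* by 1.41 ± 2.33 points within kainate receptors (adjusted exact p = 0.438), *Grin2b* by 0.88 ± 2.97 points within *Grin2* genes (0.531) and *Gabrg1* by −0.16 ± 0.61 points within gamma subunits (0.531).

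After cytokines 5 of the receptor genes were called lower in both genotypes, while the shares called did not exceed those of all genes. Of the 53 receptor genes that could be tested, 8 were called in WT cells (2 up, 6 down), a share of 15.1% beside 16.1% of all genes tested in the same comparison (7.7% up, 8.36% down). In TNFR2-/- cells 11 were called (3 up, 8 down), or 20.8% beside 26.0% of all genes (9.62% up, 16.3% down). Neither share stood above that of all genes. The St and NS libraries did not overlap for 18 of the 53 in WT and 19 in TNFR2-/- cells, while over all genes this held for 37.7 and 37.3%. On recovered reads (voom and limma) 8 receptor genes were called in WT cells, all down, beside 18.2% of all genes, and 11 in TNFR2-/- cells (2 up, 9 down) beside 29.0%. The median log2 change was −0.11 in WT (all genes −0.05) and −0.04 in TNFR2-/- cells (all genes −0.11). Median-of-ratios factors, which take out such a shift of all genes, turned the split in TNFR2-/- cells into 4 up and 4 down and in WT cells into 2 up and 5 down. *Gria2*, *Grik3*, *Grm4*, *Gabra4* and *Chrna4* were downregulated in both genotypes and *Chrna5* was upregulated in both. The NS and St libraries of a genotype that carry the same number proved to be paired, and with the culture as a term in the limma fit 17 receptor genes were called in WT (3 up, 14 down, beside 31.6% of all genes) and 20 in TNFR2-/- cells (6 up, 14 down, beside 45.1%). These included all 8 and all 11 of the calls without it.

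*Gria2* (chromosome 3, 80681450 to 80802835 on GRCm38, minus strand) had 487, 548 and 467 CPM in WT NS and 352, 404 and 357 in the matching WT St libraries. In TNFR2-/- cells the values were 415, 435 and 477 before and 312, 339 and 346 after stimulation. Each culture was lower after cytokines, and the groups did not overlap in either genotype. The log2 fold change was −0.43 ± 0.0823 (SE) in WT and −0.41 ± 0.0823 in TNFR2-/- cells, with adjusted p = 0.00462 and 0.00443 in limma. The other AMPA receptor genes were not called. *Gria4* gave −0.05 and 0.09, *Gria3* −0.11 and −0.10 and *Gria1* −0.20 and 0.12 (log2, WT and TNFR2-/-).

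Both abundant kainate receptor genes were lower after cytokines. *Grik3* had 261, 286 and 267 CPM in WT NS and 166, 214 and 203 in WT St libraries, and 185, 222 and 196 before and 134, 182 and 151 after stimulation in TNFR2-/- cultures. It fell by 0.49 ± 0.123 in WT and by 0.37 ± 0.123 in TNFR2-/- cells on the log2 scale (limma adjusted p = 0.0214 and 0.0475). The groups did not overlap in either genotype. *Grik5* was 141, 146 and 141 in WT NS and 118, 121 and 120 in WT St, and 124, 151 and 154 against 105, 121 and 119 in TNFR2-/- cells. It was downregulated in TNFR2-/- cells (−0.31 ± 0.0815, limma adjusted p = 0.0181), whereas the change in WT cells, −0.25, had an adjusted p of 0.0679 in limma and passed with the culture as a term (0.00171). *Grik4*, another high-affinity subunit, was lower after stimulation in 6 of 6 cultures and was called only with the culture as a term in limma (adjusted p = 0.0031 and 0.00121). Scaling by median-of-ratios factors ended the calls of *Grik3* (limma adjusted p = 0.0544 in WT and 0.22 in TNFR2-/- cells) and of *Grik5* (0.148).

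Among NMDA receptor genes *Grin1* was called, and in TNFR2-/- cells alone. It fell by 0.40 ± 0.112 on the log2 scale in TNFR2-/- cells (limma adjusted p = 0.0234), from 8.3, 7.86 and 9.23 to 5.56, 5.06 and 6.65 CPM. In WT cells it went from 7.39, 7.55 and 7.24 to 4.82, 6.16 and 6.65, a change of −0.24 that was not called (limma adjusted p = 0.196). Recovered reads gave −0.56 in TNFR2-/- and −0.34 in WT cells (voom and limma adjusted p = 0.011 and 0.134). Of the exon bases of *Grin1* 13.5% are shared with the antisense transcript *Grin1os*, and strand use in counting is not given in the sources used here, so reads of both cannot be told apart. *Grin3a* was lower in all 6 cultures, from 68.6, 76.8 and 61.9 to 42.2, 55.9 and 41.1 in WT and from 60.5, 70.8 and 95.1 to 47.4, 55.6 and 65.0 in TNFR2-/- cells. Its limma adjusted p was 0.0649 in WT and 0.134 in TNFR2-/- cells, and 0.00164 and 0.00462 with the culture as a term. *Grin2b* had a change of −0.83 in WT and 0.68 in TNFR2-/- cells on recovered reads, neither of which was called (voom and limma adjusted p = 0.203 and 0.298).

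Among metabotropic glutamate receptors *Grm4*, which couples to inhibitory G proteins, was downregulated. It had 93, 101 and 119 read pairs in WT NS and 45, 69 and 59 in WT St libraries, and 79, 111 and 98 before and 47, 51 and 48 after stimulation in TNFR2-/- cultures. On log2(FPKM + 0.5) it fell by 0.62 ± 0.129 in WT and by 0.61 ± 0.129 in TNFR2-/- cells (limma adjusted p = 0.0074 and 0.00593), and on recovered reads, without the pull of the pseudocount, by 0.92 and 0.93. The abundant *Grm5* was not called, with −0.18 in WT and 0.12 in TNFR2-/- cells (limma adjusted p = 0.418 and 0.552), and with the culture as a term it passed in WT cells alone (0.0334). The difference between its 2 responses was not called (0.736). *Grm4* and *Chrna4* were called in both genotypes under every alternative run, and *Gria2* under all but the 1 that also required a minimum fold change.

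GABA-A receptor genes gave 1 call, *Gabra4*, an alpha subunit of receptors that commonly lie outside synapses. Its values were 13.5, 11.3 and 14.8 CPM in WT NS and 7.05, 7.03 and 8.14 in WT St, and 19.0, 16.6 and 26.8 against 11.1, 10.1 and 15.5 in TNFR2-/- cells. It was downregulated by 0.75 ± 0.19 in WT and 0.72 ± 0.19 in TNFR2-/- cells (log2, limma adjusted p = 0.021 and 0.0188). The other 11 tested GABA-A genes were not called. *Gabrg1* gave 0.06 and 0.10 (log2, WT and TNFR2-/-). *Gabbr1*, the subunit of the GABA-B receptor that binds GABA, went the other way. It had 98.8, 89.0 and 81.7 CPM before and 109, 110 and 99.9 after cytokines in WT, and 88.9, 114 and 123 against 125, 158 and 148 in TNFR2-/- cultures. It was higher after stimulation in 6 of 6 cultures and was upregulated in TNFR2-/- cells (0.41 ± 0.127, limma adjusted p = 0.0371), while the 0.25 in WT cells was called only with the culture as a term (0.248 without and 0.0167 with it in limma). Its partner *Gabbr2* was not called, with 0.19 and 0.13.

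Nicotinic receptor genes were called in both directions. *Chrna4*, which in neurons forms the main high-affinity nicotine receptor together with *Chrnb2*, had 50.2, 54.9 and 44.2 CPM in WT NS and 31.3, 36.0 and 27.9 in WT St libraries. In TNFR2-/- cells it had 49.1, 51.9 and 47.2 before and 30.1, 34.0 and 28.01 after stimulation. The groups did not overlap in either genotype, and the log2 fold changes were −0.60 ± 0.115 and −0.63 ± 0.115 (limma adjusted p = 0.00461 and 0.00241). *Chrna5*, an accessory subunit, was scarce and rose from 15, 12 and 13 to 20, 25 and 25 read pairs in WT and from 18, 13 and 15 to 20, 31 and 25 in TNFR2-/- libraries, by 0.69 ± 0.163 in both (limma adjusted p = 0.0152 and 0.0107). On recovered reads *Chrna5* in WT cells was not called (voom and limma adjusted p = 0.0698). The calls of *Chrna3* in WT cells and of *Chrne* in both genotypes rest on a handful of reads. *Chrna3* had 1, 1 and 0 reads in WT NS and 5, 4 and 6 in WT St libraries, and *Chrne* had 2, 4 and 5 in WT NS, 1 in each WT St library, 1, 0 and 0 in TNFR2-/- NS and 2 in each TNFR2-/- St library, so their fold changes are not given beside these calls.

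Of the muscarinic receptors *Chrm1*, which couples to phospholipase C, fell from 249, 266 and 169 to 142, 140 and 59 read pairs in TNFR2-/- cells, by 1.04 ± 0.326 on the log2 scale (limma adjusted p = 0.0384). In WT cells it went from 329, 200 and 224 to 165, 101 and 110, a change of −1.05 that just missed the threshold (limma adjusted p = 0.0536) and was called on recovered reads (voom and limma adjusted p = 0.031) and with the culture as a term (0.000699). All 6 cultures were lower after cytokines and the groups did not overlap. *Chrm3* was also lower in 6 of 6 cultures (−0.56 and −0.52, limma adjusted p = 0.247 and 0.224, and 0.00505 and 0.00516 with the culture as a term). Of the exon bases of *Chrm1* 5.07% are shared with a gene on the opposite strand. Median-of-ratios scaling ended the calls of *Chrm1* (limma adjusted p = 0.0784) and *Grin1* (0.0678) in TNFR2-/- cells. Leaving out 1 library of the genotype compared ended, for at least 1 choice of library, every call of *Grik3*, *Grik5*, *Grin1*, *Gabra4*, *Gabbr1*, *Chrm1* and *Chrne* and that of *Chrna5* in WT cells, with limma adjusted p between 0.0501 and 0.154.

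**Figure D3:**
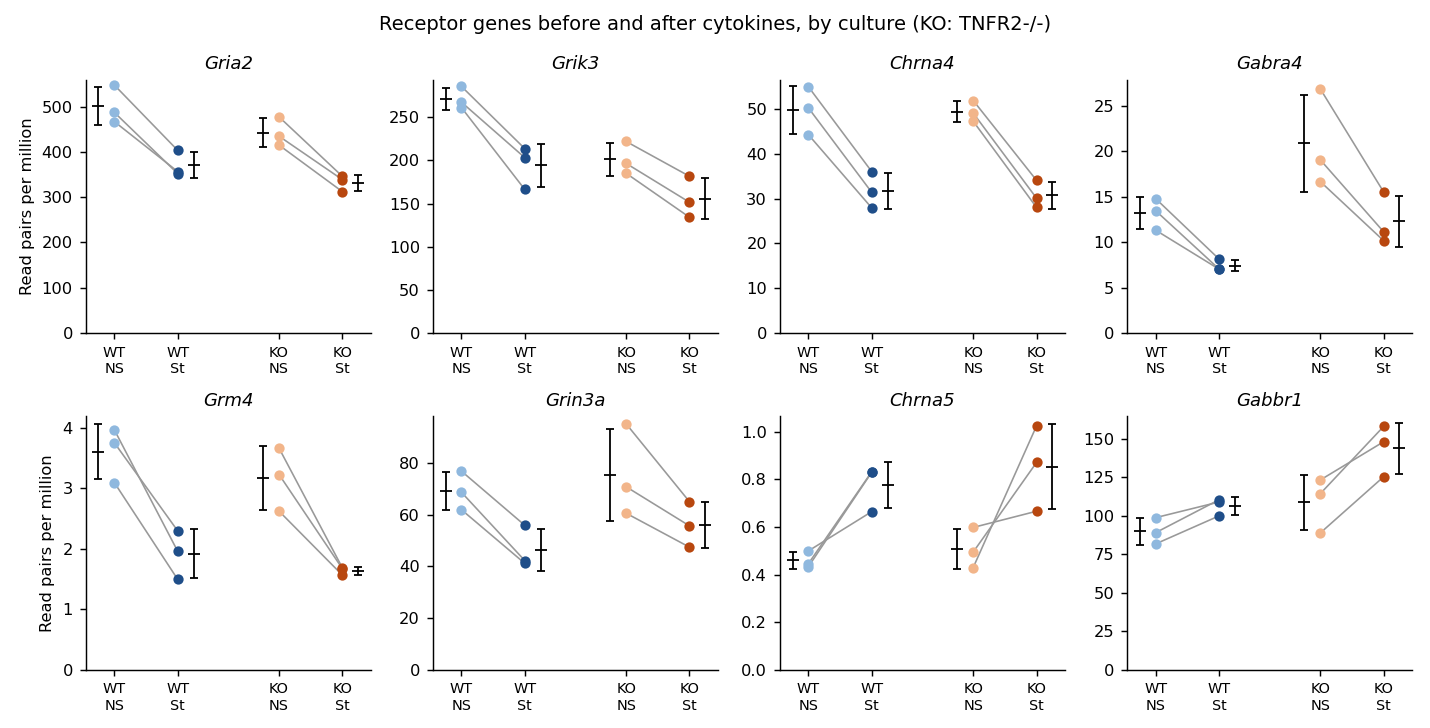
CPM (read pairs scaled to library size) of 8 receptor genes before (NS) and after (St) cytokines; gray lines join libraries of the same culture, and bars beside the points give mean ± SD (n = 3). *Gria2*, *Grik3*, *Chrna4*, *Gabra4*, *Grm4* and *Grin3a* are lower and *Chrna5* and *Gabbr1* higher after stimulation in all 6 cultures.

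The sequences next to the start of 5 of the 6 genes called in both genotypes in the same direction are shown because the cytokines given are known to act through transcription factors with known binding motifs. They are the 200 bases before the RefSeq transcription start on GRCm38.p6, on the strand of the gene, for *Gria2* (chr3:80802836-80803035), *Chrna4* (chr2:181039178-181039377), *Gabra4* (chr5:71658309-71658508), *Grik3* (chr4:125490496-125490695) and *Chrna5* (chr9:54980680-54980879, the upstream of 2 annotated starts). The strand is plus for *Grik3* and *Chrna5* and minus for the others. The windows were searched on both strands for the motif TTCNNNGAA (GAS, bound by STAT dimers), the core of the interferon response element (ISRE) and the kB site bound by NF-κB, each counted on its own, and capitals mark a match.
Gria2: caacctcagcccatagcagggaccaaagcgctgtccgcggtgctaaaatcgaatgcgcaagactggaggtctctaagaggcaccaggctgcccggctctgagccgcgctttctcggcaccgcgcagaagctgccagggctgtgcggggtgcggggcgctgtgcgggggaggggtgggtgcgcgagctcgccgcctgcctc
Chrna4: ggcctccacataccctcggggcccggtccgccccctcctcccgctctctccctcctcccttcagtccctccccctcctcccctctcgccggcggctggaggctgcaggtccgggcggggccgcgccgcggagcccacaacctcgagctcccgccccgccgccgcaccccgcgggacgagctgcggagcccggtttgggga
Gabra4: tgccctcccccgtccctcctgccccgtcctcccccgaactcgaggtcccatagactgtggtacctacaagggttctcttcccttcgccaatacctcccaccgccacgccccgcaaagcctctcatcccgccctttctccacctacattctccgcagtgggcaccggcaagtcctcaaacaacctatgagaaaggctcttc
Grik3: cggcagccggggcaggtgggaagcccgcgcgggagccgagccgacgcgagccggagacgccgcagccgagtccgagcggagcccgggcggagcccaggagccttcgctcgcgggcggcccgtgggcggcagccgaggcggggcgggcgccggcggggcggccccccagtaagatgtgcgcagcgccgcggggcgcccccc
Chrna5: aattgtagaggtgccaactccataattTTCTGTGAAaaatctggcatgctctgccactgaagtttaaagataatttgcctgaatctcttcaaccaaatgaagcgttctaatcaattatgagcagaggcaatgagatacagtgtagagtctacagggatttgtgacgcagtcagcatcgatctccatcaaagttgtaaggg
The first 4, of genes that were downregulated, hold no match in these windows, the upstream Chrna5 window holds 1 GAS match, and the window of the second Chrna5 start (chr9:54981288-54981487, not printed) holds none. The windows of *Gria2*, *Chrna4*, *Gabra4* and *Grik3* had 68.5, 78.0, 61.0 and 83.5% G and C, above the median of 53.0% over all promoters, and those of *Chrna5* 40.5% upstream and 69.0% at the second start. Over the 250 bases before the start, the 57 annotated promoters of 49 receptor genes held a GAS match in 5.26%, an ISRE core in 3.51% and a kB site in 19.3%, beside 7.02, 2.98 and 17.6% of 32851 promoters of all genes. A match describes the letters only.

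Genes whose products attach to these receptors were taken from lists of auxiliary subunits, scaffolds and assembly factors. For AMPA receptors, 15 of 17 listed genes were tested, with 1 up and 3 down in WT and 1 up and 5 down in TNFR2-/- cells, where 7.7 and 8.36% of all genes were up and down in WT and 9.62 and 16.3% in TNFR2-/- cells. *Cnih3*, an auxiliary subunit that slows channel closure, fell by 0.79 and 0.91 (log2, limma adjusted p = 0.00703 and 0.00213). Its level went from 9.83 ± 2.41 to 4.46 ± 1.21 CPM in WT cells (SD, n = 3). Log2 values of the listed genes are those of log2(FPKM + 0.5), so the pseudocount can make them smaller than the change in CPM, as for *Cnih3*. *Abhd6*, whose product limits the surface delivery of AMPA receptors, fell by 0.59 and 0.58, and *Shisa7*, an auxiliary protein of AMPA and GABA-A receptors, fell by 0.38 and 0.52. *Cacng4*, a further auxiliary subunit, fell by 0.56 in TNFR2-/- cells, where *Prrt1* also fell by 0.66. *Cacng5* rose by 1.16 in WT cells and *Shisa6* by 0.73 in TNFR2-/- cells. The means of *Cacng4*, *Prrt1*, *Cacng5* and *Shisa6* moved the same way in the other genotype, without a call. *Cacng4* went from 428 to 335 and *Shisa6* from 106 to 132 CPM in WT cells, and *Cacng5* from 8.08 to 14.4 in TNFR2-/- cells. The difference between the responses was called for 0 of the 15 genes. Both listed auxiliary subunits of kainate receptors fell in WT cells (*Neto1* by 0.44 and *Neto2* by 0.37) and *Neto2* fell by 0.30 in TNFR2-/- cells.

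Of 24 listed scaffold genes of glutamatergic synapses 23 were tested, and 4 fell in WT and 5 in TNFR2-/- cells, with none up (8.36 and 16.3% of all genes fell). *Shank2* fell by 0.78 and 0.95 (log2, limma adjusted p = 0.00473 and 0.00106), *Dlgap3* by 0.87 and 0.84 and *Dlg3* by 0.47 and 0.43, and *Homer3* fell by 0.48 in TNFR2-/- cells. The medians over the 23 genes were −0.15 and −0.10, beside −0.05 and −0.11 for all genes. Of 15 genes for GABA-A receptor scaffolds and assembly, *Hap1*, which aids the recycling of GABA-A receptors, rose by 0.60 and 0.59, *Shisa7* fell as above, and *Nlgn3* and *Lhfpl4* fell by 0.65 and 0.22 in TNFR2-/- cells. Of 3 tested auxiliary subunits of GABA-B receptors, *Kctd12b* fell by 0.60 and 0.61, and *Kctd8* rose by 1.13 in TNFR2-/- cells. Among all these lists the largest changes were in the assembly factors of nicotinic receptors, of which 5 of 8 were tested. In each genotype 1 was up and 1 down, beside 7.7 and 8.36% of all genes in WT and 9.62 and 16.3% in TNFR2-/- cells. *Ly6h*, a membrane-anchored protein that restrains nicotinic receptors, rose from 7.95 ± 0.842 to 31.9 ± 2.92 CPM in WT and from 7.21 ± 1.38 to 25.7 ± 2.01 in TNFR2-/- cells (1.93 and 1.77 on the log2 scale, limma adjusted p = 3.61e-06 and 5.93e-06). *Lypd6*, of the same protein family, fell by 1.35 and 1.42 (limma adjusted p = 0.0014 and 0.000765).

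Beside these changes, cell type markers were called as well. *Olig2* (−1.23 and −1.16), *Cspg4* (−0.66 and −0.55) and *Olig1* (−0.36 and −0.43) fell in both genotypes. *Sox10* rose by 0.61 in WT cells and *Pdgfra* fell by 0.56 in TNFR2-/- cells. Thus 1 of the 10 OPC markers rose and 3 fell in WT cells, and 4 fell in TNFR2-/- cells. Over all genes tested, 7.7% rose and 8.36% fell in WT cells, and 9.62% rose and 16.3% fell in TNFR2-/- cells. Without a call, mean *Sox10* went from 259 to 331 CPM in TNFR2-/- cells and mean *Pdgfra* from 666 to 523 in WT cells. The difference between the responses was called for 0 of the 10. The summed OPC markers were 8989 to 10405 CPM in WT NS and 7476 to 8580 in WT St libraries, and 8953 to 9786 and 7793 to 8556 in TNFR2-/- NS and St libraries. Of the 14 neuron markers tested 1 rose and 2 fell in WT cells and 2 rose and 1 fell in TNFR2-/- cells. The shares of all genes given for the OPC markers apply here too. *Tubb3* rose by 3.06 and 3.18 (log2), *Snap25* fell by 0.97 and 0.94, *Map2* fell by 0.27 in WT cells and *Nefm* rose by 0.74 in TNFR2-/- cells. Their part in the receptor changes was not tested.

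In non-stimulated cells 7 of 53 were called, all lower in the libraries labeled TNFR2-/-, a share of 13.2% beside 10.9% of all genes (6.11% higher, 4.75% lower). In stimulated cells 2 of 53 were called, 1 higher and 1 lower, or 3.77% beside 5.45% of all genes (2.7% higher, 2.75% lower). On recovered reads (voom and limma) 6 were called in NS cells (1 higher, 5 lower) beside 14.3% of all genes, and 3 in St cells (1 higher, 2 lower) beside 8.09%. The libraries of the genotypes did not overlap for 17 of the 53 in NS and 15 in St cells, beside 34.2 and 32.7% of all genes. The WT NS and TNFR2-/- NS libraries used here also enter the stimulation comparisons above. The median log2 difference of receptor genes was −0.12 in NS and −0.04 in St cells, against 0.04 and −0.00 for all genes. Of the auxiliary subunits of AMPA receptors, *Gsg1l* was higher in TNFR2-/- libraries by 0.68 in NS and 0.74 in St cells, and *Shisa7* was lower by 0.42 and 0.56 (log2, limma adjusted p of 0.00965, 0.00963, 0.0147 and 0.00864 in this order).

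**Figure D4:**
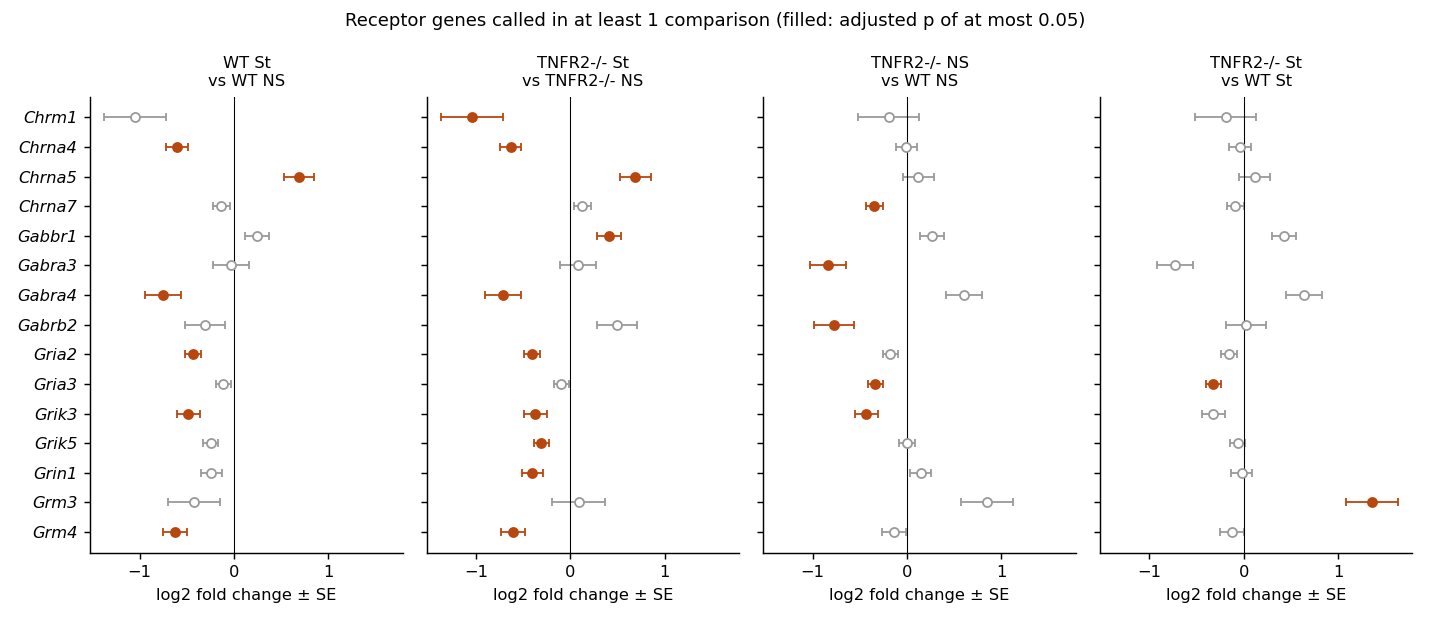
Log2 fold changes ± SE in 4 comparisons for 15 of the 18 receptor genes called in at least 1 of them (*Chrne* and *Chrna3* are among those left out); filled points have a limma adjusted p of at most 0.05. *Gria2*, *Grik3*, *Grm4*, *Gabra4* and *Chrna4* are filled and left of 0 in both stimulation panels, and *Gria3* is filled and left of 0 in both genotype panels.

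GABA-A receptor genes were among the calls in NS cells. *Gabra3* (chromosome X, 72432681 to 72656848) had 13.2, 21.1 and 17.7 CPM in WT NS and 7.87, 10.2 and 8.77 in TNFR2-/- NS libraries, without overlap. The log2 difference was −0.84 ± 0.194 (limma adjusted p = 0.0282). In St cells it was 12.8, 20.2 and 17.5 against 8.66, 11.2 and 8.75, a difference of −0.73 that was called on recovered reads (voom and limma adjusted p = 0.0419) but not on FPKM (limma adjusted p = 0.0548). *Gabrb2* had 77, 64 and 61 read pairs in WT NS and 49, 27 and 49 in TNFR2-/- NS libraries, and was lower by 0.77 ± 0.212 (limma adjusted p = 0.0442). In St cells its difference was 0.02 ± 0.212, not called (limma adjusted p = 0.961).

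*Gria3*, which encodes an AMPA receptor subunit and lies on chromosome X as well, was lower in TNFR2-/- libraries both without and with cytokines. Its values were 147, 173 and 163 CPM in WT NS and 119, 127 and 135 in TNFR2-/- NS libraries, and 143, 157 and 145 against 108, 125 and 123 in St libraries. The groups did not overlap and the log2 difference was −0.34 ± 0.08 and −0.32 ± 0.08 (limma adjusted p = 0.0295 and 0.0463). *Grik3* was lower in NS cells by 0.43 ± 0.123 (limma adjusted p = 0.0495) and gave −0.32 in St cells (0.135). It lies on chromosome 4, 19.5 Mb from *Tnfrsf1b*. *Chrna7*, which encodes the calcium-permeable homomeric nicotinic receptor, had 4.5, 5.28 and 4.74 CPM in WT NS and 3.56, 3.73 and 3.82 in TNFR2-/- NS libraries (−0.35 ± 0.0904, limma adjusted p = 0.0376), but was not called on recovered reads (voom and limma adjusted p = 0.0602). In St cells the difference for *Chrna7* was −0.09, not called (limma adjusted p = 0.577). The call of *Chrne* rests on the few reads given above.

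The single receptor gene called higher in TNFR2-/- libraries on FPKM was *Grm3*, in St cells. In St libraries it had 7.64, 5.43 and 5.18 CPM in WT and 15.5, 20.8 and 13.1 in TNFR2-/- cells, without overlap, a log2 difference of 1.36 ± 0.276 (limma adjusted p = 0.0281). In NS libraries it had 11.7, 7.25 and 6.54 against 15.2, 21.0 and 10.98, a difference of 0.85 (0.0717). Other genes were higher in all 3 TNFR2-/- than in all 3 WT libraries of both conditions without being called, among them *Gabrb1* (1.05 in NS and 1.11 in St), *Gria1* (0.71 and 1.03) and *Gabra4* (0.60 and 0.64), which was called in NS on recovered reads (voom and limma adjusted p = 0.0461). Culture 5 of TNFR2-/- had the highest value of each, with 30.2 and 24.0 CPM of *Gabrb1* in its NS and St libraries against at most 13.1 and 11.5 in the other TNFR2-/- cultures. *Gria1* had 25.1 and 27.2 against at most 15.1 and 16.6, and *Gabra4* 26.8 and 15.5 against at most 19.0 and 11.1. This is also the culture with the highest sums of astrocyte markers (4553 and 4536 CPM). Its 9 mature oligodendrocyte markers, at 1300.9 CPM in NS and 1099.6 in St, likewise had the highest sums of the 12 libraries. *Grm3*, by contrast, was lowest in culture 5 among the TNFR2-/- cultures. Over the 9 astrocyte markers, 2 were called higher in TNFR2-/- cells in NS (*Slc1a3* and *Gja1*) and 2 in St cells (*Slc1a3* and *Slc1a2*). Of all genes tested, 6.11% were called higher in NS and 2.7% in St cells. *Gfap* and *Aqp4* had at least 251 and 988 reads in every library. The part of astrocyte or mature oligodendrocyte RNA in the genotype differences was not tested.

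**Figure D5:**
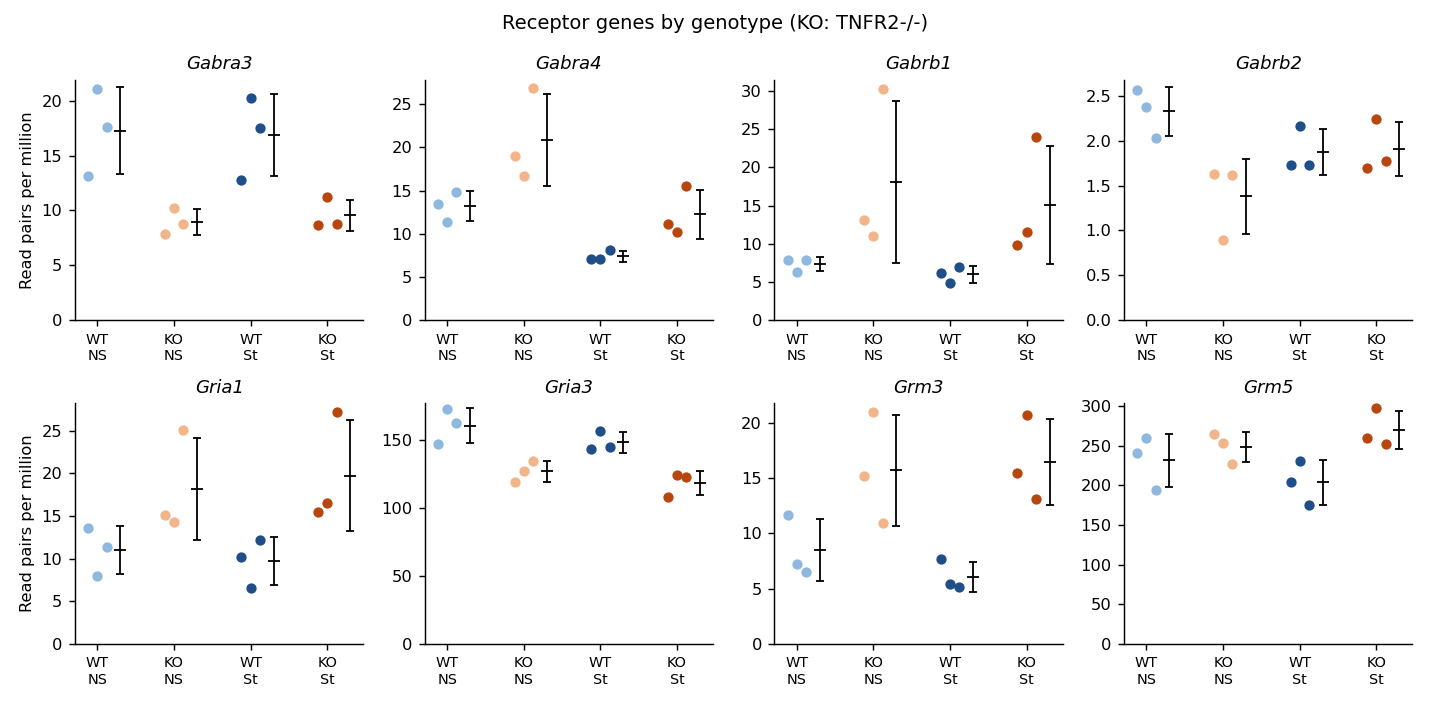
CPM (read pairs scaled to library size) of 8 receptor genes in WT and TNFR2-/- (KO) libraries, non-stimulated (NS) and stimulated (St); bars beside the points give mean ± SD (n = 3). *Gabra3*, *Gria3* and, in NS cells, *Gabrb2* are lower, and *Gabra4*, *Gabrb1*, *Gria1* and, in St cells, *Grm3* and *Grm5* higher in the KO libraries, without overlap.

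The genotype calls depended on which libraries were in the fit. Without WT NS replicate 3 or 4, none of the 7 calls in NS cells held, 1 held without TNFR2-/- NS replicate 2 or 5, and 4 held without WT St replicate 3. In St cells none held without WT St replicate 3 or 4 or any 1 of the TNFR2-/- St libraries, 1 held without WT NS replicate 3 or 4, WT St replicate 2 or TNFR2-/- NS replicate 2, and 4 were called without TNFR2-/- NS replicate 5. Where their calls were lost in NS cells, the log2 differences were −0.38 to −0.28 for *Gria3*, −0.83 to −0.69 for *Gabra3* and −0.91 to −0.50 for *Gabrb2*, and leaving out a library outside the comparison moved the adjusted p but not the difference. A fit over only the 6 libraries compared called none in either condition.

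GABA-A receptor genes lie in clusters that the choice of genes did not use. On chromosome 5 (70751047 to 72149037), *Gabrg1*, *Gabra2*, *Gabra4* and *Gabrb1* lie side by side. Their log2 differences between the libraries labeled TNFR2-/- and WT in NS cells were 0.18, 0.05, 0.60 and 1.05, none called. Stimulation called *Gabra4* alone among them, although the 5′ exons of *Gabra4* and *Gabrb1* overlap by 46 bases on opposite strands. On chromosome X (72255999 to 72842602), *Gabre*, *Gabra3* and *Gabrq* gave −0.12, −0.84 and, on recovered reads, −0.98, of which only *Gabra3* was called. The pseudocount pulls the value of the scarce *Gabre* toward 0. Recovered reads gave −0.50 for *Gabre* and −0.92 for *Gabra3* (voom and limma adjusted p = 0.232 and 0.0209). On recovered reads *Gabre*, whose reads numbered 31 to 44 without and 13 to 19 with cytokines in WT, was called lower after stimulation in both genotypes (−1.19 and −1.13, voom and limma adjusted p = 0.0166 and 0.0253).

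No receptor gene responded differently to cytokines in the 2 genotypes by the test of that difference. The interaction of genotype and stimulation called 0 of 53 in limma, beside 0.00553% of all genes (1 gene), and 4 receptor genes (among them *Chrne*, *Gabrb2* and *Chrna3*) had an unadjusted p under 0.05, as had 7.95% of all genes. Voom on recovered reads called 0 as well. For *Gria2* the difference between the 2 responses was 0.02 ± 0.116 on the log2 scale, for *Chrna4* −0.03 ± 0.162, for *Gabra4* 0.04 ± 0.268 and for *Gabbr1* 0.16 ± 0.179 (SE), and differences of the order of these errors could not have been resolved.

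The remaining 16 receptor genes were not tested on FPKM. *Chrna6*, *Gabra6* and *Gabrr3* were listed at 0 in all 12 libraries, and *Chrna9* and *Gabrp* were above 0 in 1 library each. *Grin2b*, *Chrm4* and *Gabrq* had a mean of at least 10 read pairs and fell below the filter through their divisors. On recovered reads *Chrm4*, which had 19, 36 and 34 reads in WT NS and 13, 23 and 22 in WT St libraries, gave −0.64 and −0.69 with stimulation, not called (voom and limma adjusted p = 0.233 and 0.148). The other 8 were *Gabrr1*, *Gabrr2*, *Gabrd*, *Chrna1*, *Chrna10*, *Chrnd*, *Chrng* and *Chrm5*, with a mean of at most 9.0 reads. Among these, *Gabrr1* had 2 to 4 reads in WT and 6 to 15 in TNFR2-/- libraries, and *Gabrr1* and *Gabrr2*, tested on recovered reads, were not called in any comparison.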

How the data were processed

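Bulk RNAseq gave 12 OPC libraries, grouped by the genotype and treatment in the labels. Per the methods and labels, reads had been trimmed with Trim Galore, aligned with STAR to GRCm38 and analyzed with edgeR, and FPKM were the only unit deposited by the authors, in separate tables for NS and St. Each holds 45792 entries, of which 229 (99 repeated symbols) were left out. Read pairs were recovered from the FPKM steps: whole reads resulted (tolerance 0.002 reads) for 26636 of 26636 genes that exceeded 0 in 2 or more libraries, and NS and St tables used the same divisors. Exon lengths came from the GRCm38 annotation.

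Differences were tested with limma 3.58.1 (R 4.3.3) with a trend on log2(FPKM + 0.5), over the 18081 genes averaging 0.1 FPKM or more, all 4 groups in 1 fit, with Benjamini-Hochberg adjustment. The pseudocount understates changes of genes with a low FPKM, which depends on the deposited divisor as well as on the reads. The alternative with recovered reads used voom over 16932 genes with a mean of at least 5 reads, a minimum chosen after seeing the data, as were its median-of-ratios factors. The procedure was tested on simulated data. Shares of subunits were tested with exact sign-flip permutations over cultures. Within a genotype, equally numbered NS and St libraries deviated together (r from 0.34 to 0.65 over 13554 genes in 6 pairs, against −0.45 to 0.09 in 12 other pairs of a genotype), whereas same numbers across genotypes did not (−0.08 to 0.20), so numbers were taken to pair cultures within a genotype.

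Genes named are those called in any comparison, the leading gene of each family, *Grin2b* and, of the auxiliary lists, those past the test; *Grik4*, *Grin3a* in the test, *Chrm3*, *Gabre* with stimulation, *Gria1*, *Gria4*, *Gabrb1*, *Gabra2*, *Gabbr2*, the untested genes and more than 5 genes of a list were named after their values were seen. Some results are not reported here. Receptor genes and lists were chosen with earlier results of these data known. The labels do not say that libraries came from separate litters, so p-values measure the spread between these cultures. The alternatives tried are other pseudocounts, filters, scalings, blocks and weights, and each library left out. Reads without molecular identifiers are not independent molecules.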

Additional observations from a re-analysis of the deposited data

Results flagged for a closer look

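For 3 receptor genes every culture of a genotype moved one way after cytokines and every culture of the other genotype the opposite way. The difference between the responses, TNFR2-/- minus WT on the log2 scale, was 1.94 for *Chrne*, a fitted value that depends on the pseudocount since no library has more than 5 reads (limma adjusted p = 0.444), 0.8 for *Gabrb2* (0.563) and 0.14 for *Gria4* (0.919). None was called by the test of the interaction.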

How the results depend on the processing

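Of 28 called changes of single genes, 4 passed under every alternative (*Grm4* and *Chrna4*, each in both genotypes). Over 707 alternative values 544 stayed past the threshold and 163 did not, with no change of sign. Counts of receptor genes called moved by over 1.5 times as follows. With the replicate block within genotype (the culture as a term) there were 17 in WT and 20 in TNFR2-/- cells for St against NS; with a block by number across genotypes, which does not pair cultures, 14, 18, 12 (TNFR2-/- against WT, NS) and 10 (the same, St). With a weight for each library 15 were called for WT St against NS, 12 for the genotypes in NS and 9 in St. A fit over the libraries compared called 4 for TNFR2-/- St against NS and 0 for either genotype comparison. A minimum fold and level left 4, 5, 2 and 1. Without a filter 3 and 1 remained between genotypes in NS and St. Between genotypes in St cells median-of-ratios factors, quantile normalization and limma without the trend each called 1. A fit over the libraries compared has fewer samples and the minimum fold is a stricter rule. The cause of any of these moves was not tested. With 1 library left out, counts ran from 4 to 10 in WT (lowest when WT NS replicate 4 was left out, and 5 when it was replicate 3), from 7 to 11 in TNFR2-/- cells (7 without TNFR2-/- NS replicate 5), from 0 to 8 between genotypes in NS, from 0 to 4 in St cells and stayed at 0 for the interaction. The mean St minus NS difference of the *Grik5* share reversed to −0.234 points on FPKM as deposited. With both libraries of 1 culture left out, the mean differences of the shares ran from −7.02 to −6.32 points (*Gria2*), 0.219 to 1.78 (*Grin2b*), 0.703 to 1.96 (*Grik5*) and −0.357 to −0.0075 (*Gabrg1*). Of the tested receptor genes 10 had a mean under 10 reads, and the calls of *Chrna3* and *Chrne* among them rest on at most 6 and 5 reads in a library.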
